A study of Homo sapiens with 12 samples.

Results

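Ubiquitin-specific proteases, the USP family of deubiquitinases, were followed in 3 human soft tissue sarcoma cell lines given taurolidine, TRAIL or both agents. Members were the genes whose platform symbol is USP followed by a number, with a letter allowed at the end. Each was read from the probe set with the highest mean log2 signal over the 12 arrays, provided that this probe set was above a signal of 136.5, the middle value of the table, on 3 or more arrays. A single-gene probe set existed for 46 such genes, and 42 of them met the rule among 14221 genes tested in all. The 46 genes had 131 probe sets, of which 104 passed the filter. Of the 4 genes left out, USP26 exceeded the median on 1 array with a mean signal of 31.0, USP44 and USP29 on 0 arrays with means of 39.5 and 32.9, and the other is a Y-linked gene. Just inside the threshold stood USP51, over it on 4 arrays with a mean of 189.9, USP2 on 5 arrays with a mean of 127, and USP20 on 7 arrays with a mean of 206. 37 members were over the median on all 12 arrays. USP6, USP10, USP15 and USP32 had no probe set assigned to them alone and are not analysed here.

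Each cell line gave 1 array for each of 4 treatments, after 6 h of exposure. Cells received taurolidine plus TRAIL, taurolidine alone at 250 µmol/l, TRAIL alone at 50 ng/ml, or no agent. The lines were A-204, labelled a rhabdomyosarcoma, SK-LMS-1, labelled a leiomyosarcoma, and VA-ES-BJ, labelled an epithelioid sarcoma. A set of 3 signals below always follows the order A-204, SK-LMS-1 and VA-ES-BJ, and differences are on the log2(signal + 11.8) scale with the standard error of the model over n = 3 lines.

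Ubiquitin-specific proteases are cysteine proteases that cut ubiquitin, a small protein tag, from other proteins, and thereby reverse the work of E3 ubiquitin ligases. They form the largest family of deubiquitinases in human cells, and different members act at chromatin, at the proteasome, on endosomes, on mitochondria and in signalling from cell surface receptors. Some of their best known substrates, among them p53, MDM2, MYC and MCL1, set whether a tumour cell survives stress. Taurolidine is an antimicrobial derivative of taurine with activity against cultured tumour cells. TRAIL is the death receptor ligand encoded by TNFSF10, and its receptors signal through complexes that are themselves ubiquitinated.

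All arrays shared a trimmed mean of 1000.1 to 1000.2, and their medians lay between 123 and 155. The 27 probe sets for poly-A spike RNA were 1.51-fold brighter on arrays with taurolidine (0.59 in log2 units, SD 0.11 over 3 lines). This moved with every taurolidine result below and its part in them was not tested, so counts from values scaled to the spikes are given beside them. These arrays read RNA from whole cultures, so fewer cells of a kind and less RNA per cell cannot be told apart. Markers for the labelled origins were read before treatment. SMARCB1, whose loss is typical of epithelioid sarcoma, was dimmest in VA-ES-BJ at 152 (1235 for A-204 and 3530.1 for SK-LMS-1). The epithelial genes KRT8, KRT18 and KRT19 were brightest in that line, at 16153, 18904 and 16189. EPCAM went the other way, with 1915 for A-204, 130 for VA-ES-BJ and 13.8 for SK-LMS-1. Of 5 smooth muscle genes, TAGLN, CNN1, CALD1 and MYH11 were brightest in SK-LMS-1, where MYH11 at 137 was near the table median of 136.5. ACTA2 was instead brightest in VA-ES-BJ at 4980 (1686 for SK-LMS-1 and 1667 for A-204). The muscle regulators MYOD1 and MYOG did not pass the filter and DES stood at 132 in A-204, so these markers did not bear out the rhabdomyosarcoma label of A-204.

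With taurolidine alone, 10 of the 42 USP genes fell and 1 rose relative to untreated cells (limma, adjusted p under 0.05 over all genes). That is 23.8% lower and 2.38% higher, where over all 14221 genes 11.5% were called lower and 7.73% higher (19.2% in all). The median difference of the members was -0.24, against -0.0035 for all genes, and 30 members lay below 0 and 12 above. At an unadjusted p under 0.05 stood 20 members (47.6%) and 34.5% of all genes. The falls were headed by USP42 at 5.13-fold, USP20 at 3.7-fold, USP38 at 2.94-fold and USP31 at 1.98-fold, and the gene that rose was USP11. USP20 and USP51 met the filter only through arrays without taurolidine, so their choice favours a fall and their differences are given as a description. Without these 2 genes 9 of 40 members (22.5%) were lower and the median was -0.22. With values scaled to the poly-A spikes, which moved the median of all genes to -0.62, 36 members (85.7%) were lower and 0 higher, and over all genes 56.4% were lower. Relative to the median of all genes, that of the members was -0.26 with the spikes, -0.21 with quantile normalisation and -0.24 as reported. Of all calls, 40.3% were higher as reported, 52.0% with quantile normalisation, 62.0% with equal array medians and 0.471% with the spikes. The members called lower were USP42, USP38 and USP51 without SK-LMS-1 (3), USP42 and USP38 without A-204 (2) and USP42 without VA-ES-BJ (1), with 0 higher each time. The call of USP51, reached by leaving out a line where it was dim, is likewise only a description. Only USP42 was called with no term for cell line (1), and 0 members were called when only the 6 arrays compared were fitted, where 13 (31.0%) had an unadjusted p under 0.05, as had 26.6% of all genes. Over all genes 2.15% to 2.69% were lower with 1 line left out and 0.963% with no term for cell line.

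**Figure D1:**
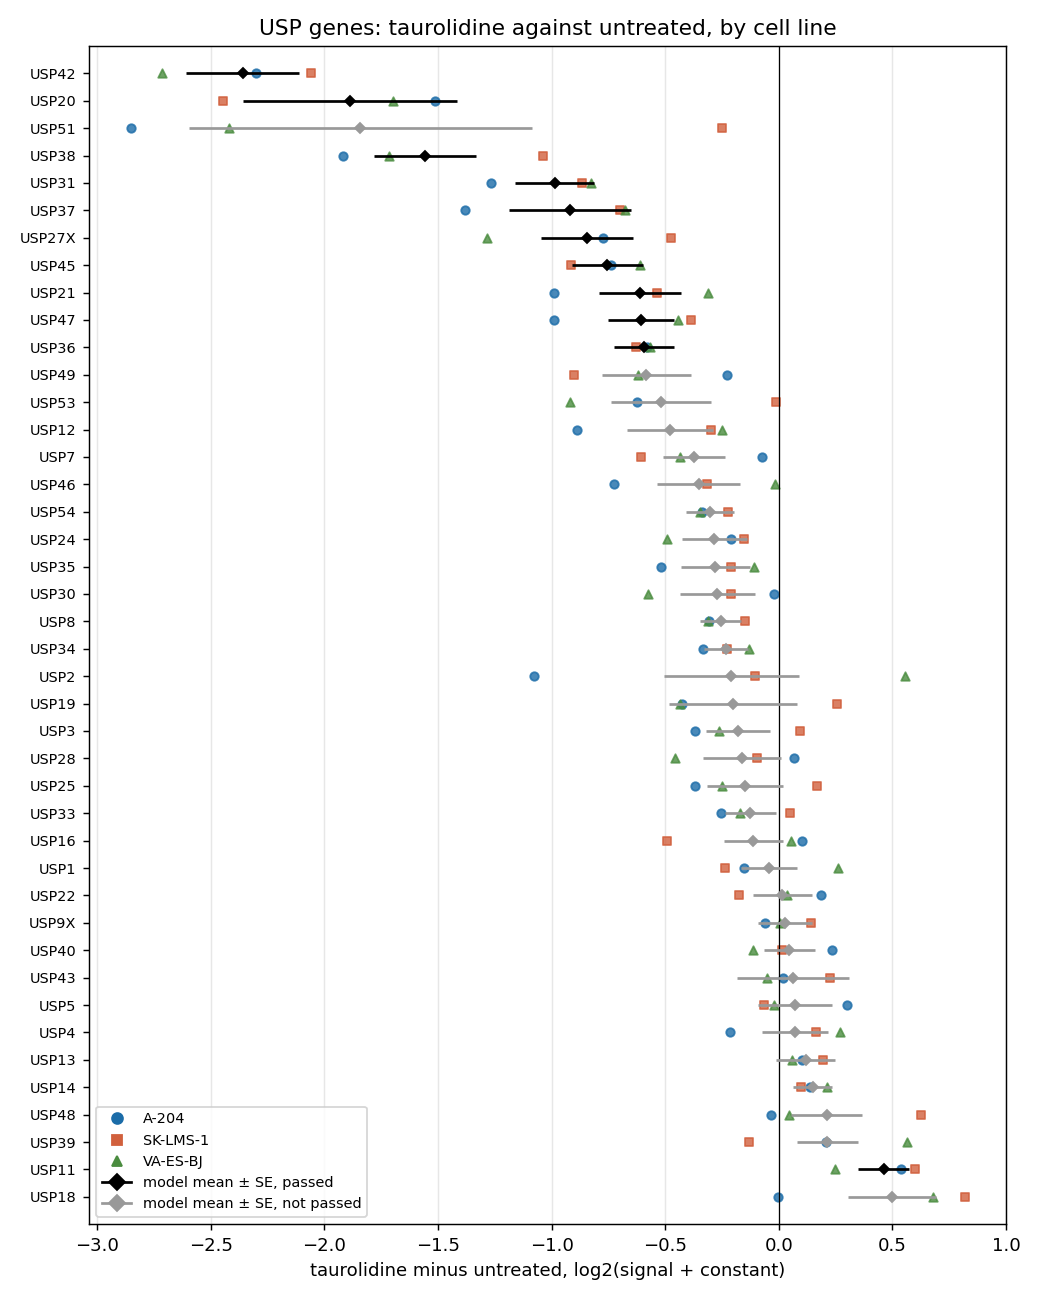
Difference between taurolidine alone and untreated cells for each of the 42 USP genes, on the log2(signal + constant) scale, with 1 coloured point per cell line and a diamond with a bar for the model mean ± SE (black where the adjusted p was under 0.05). USP42, USP20, USP38 and USP31 lie farthest left among the genes that passed, USP11 is the black diamond to the right of 0, and the 3 points of USP51 are spread most widely.

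Promoter sequences from RefSeq on build GRCh38.p14, 250 bases before to 50 after each start, were matched for 33 of the 42 members, 8 of the 11 that passed among them. They are shown for USP38, which passed as lower on both sets of arrays, for USP47 and USP21, which fell in every line, and for USP11, which rose. Capitals mark, on either strand, the GC box GGGCGG, the CCAAT box CCAAT, the cyclic AMP element TGACGTCA and the ETS core CCGGAAG, and GGGCGG and CCGGAAG share no bases in these windows. The positions are chr4:143184667-143184966 for USP38, chr11:11841722-11842021 for USP47, chr1:161159250-161159549 for USP21 and chrX:47232759-47233058 for USP11, all on the plus strand.
USP38: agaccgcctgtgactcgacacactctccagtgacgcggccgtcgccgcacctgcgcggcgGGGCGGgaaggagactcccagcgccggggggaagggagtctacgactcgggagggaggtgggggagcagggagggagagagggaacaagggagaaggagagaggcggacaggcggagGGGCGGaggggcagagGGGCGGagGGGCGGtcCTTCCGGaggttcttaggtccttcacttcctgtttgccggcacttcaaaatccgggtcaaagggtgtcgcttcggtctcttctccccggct
USP47: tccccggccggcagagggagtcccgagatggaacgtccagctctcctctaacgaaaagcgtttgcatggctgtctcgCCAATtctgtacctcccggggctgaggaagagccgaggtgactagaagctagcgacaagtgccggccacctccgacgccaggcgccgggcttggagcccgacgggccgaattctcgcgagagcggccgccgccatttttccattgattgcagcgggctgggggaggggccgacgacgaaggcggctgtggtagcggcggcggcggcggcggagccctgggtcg
USP21: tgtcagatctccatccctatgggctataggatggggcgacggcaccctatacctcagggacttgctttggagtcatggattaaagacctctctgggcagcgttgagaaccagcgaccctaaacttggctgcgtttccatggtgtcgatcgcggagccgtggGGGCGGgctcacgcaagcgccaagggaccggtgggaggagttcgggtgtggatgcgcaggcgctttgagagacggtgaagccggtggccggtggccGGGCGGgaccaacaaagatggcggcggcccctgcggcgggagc
USP11: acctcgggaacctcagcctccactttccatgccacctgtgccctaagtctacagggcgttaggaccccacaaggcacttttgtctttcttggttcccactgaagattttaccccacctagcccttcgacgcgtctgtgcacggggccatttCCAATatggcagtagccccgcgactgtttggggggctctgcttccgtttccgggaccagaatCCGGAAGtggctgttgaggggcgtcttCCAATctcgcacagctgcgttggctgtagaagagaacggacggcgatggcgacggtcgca

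The USP38 window held 4 GC boxes and 1 ETS core, that of USP21 held 2 GC boxes, and those of USP47 and USP11 held no GC box, with 1 CCAAT box in USP47, and 2 CCAAT boxes and 1 ETS core in USP11. Over the 33 member promoters 81.8% held a GC box, against 44.6% of the 27305 promoters of all genes in the table. Members had passed the signal filter, whereas the 27305 promoters include genes that were not tested, so these sets are unlike in all comparisons here. Shares over the tested genes alone were not computed. The ETS core stood in 27.3% against 10.7%, the CCAAT box in 30.3% against 35.7% and the TATA box TATAAA in 6.06% against 12%. Neither the cyclic AMP element nor the AP-1 element TGANTCA occurred in any of the 33, whereas 1.98% and 7.76% of all promoters held them. The members' promoters were rich in G and C, with a median of 70% against 58.3% for all promoters, and the letters of the GC box are themselves all G or C. Among the 8 passing members with an entry, 6 held a GC box, 3 a CCAAT box and 3 an ETS core. These are matches of letters and no binding was measured.

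Among 9 genes assigned to genome integrity and p53, 3 fell and 1 rose. Over all genes 11.5% were lower and 7.73% higher, the shares to set beside this and the other role counts below. USP42, a nuclear enzyme that acts on p53, had signals of 199, 291 and 177 with both agents and 289.8, 248 and 233 with taurolidine alone, against 1474, 1039 and 1641 with TRAIL alone and 1475, 1070.0 and 1597 untreated. All 6 arrays with taurolidine were low and all 6 without it high, with no overlap. The difference for taurolidine alone was -2.36 ± 0.25, a 5.13-fold lower signal (limma adjusted p = 0.00133), and USP42 passed in 14 of 15 alternative analyses.

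USP45, which removes ubiquitin from the repair nuclease subunit ERCC1, had signals of 546, 546 and 1406 with both agents and 623, 383 and 1034 with taurolidine alone, against 715, 594 and 1378 with TRAIL alone and 1048, 732 and 1585 untreated. It was below untreated in 3 of 3 lines with taurolidine alone, but the values across lines overlapped widely. Its difference was -0.75 ± 0.16 (adjusted p = 0.0157), while another probe set of the gene differed by 0.16, and with the mean of both USP45 no longer passed (-0.30, adjusted p = 0.143). USP47, which acts on DNA polymerase beta, had signals of 1241, 2291 and 1816 with both agents and 1255, 2191 and 2091 with taurolidine alone, against 2059.8, 2868 and 3060.1 with TRAIL alone and 2502, 2866 and 2848 untreated. Within each line both taurolidine arrays of USP47 were below both others, and the difference was -0.61 ± 0.15 (adjusted p = 0.026).

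USP11, which works with BRCA2 and PALB2 in homologous recombination, was the only member to pass as higher, with signals of 7808, 5013 and 3039.8 with both agents and 9224, 5241 and 2875 with taurolidine alone, against 6305, 4128 and 2698 with TRAIL alone and 6351, 3456 and 2420.5 untreated. Both taurolidine arrays were above both others in each line, although the lines themselves differed so much that the groups overlapped across lines. The rise was 0.46 ± 0.11, or 1.38-fold (adjusted p = 0.0261), and it was -0.17 when values were scaled to the spikes.

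A further 5 genes of this group did not pass. USP24, which acts on p53 and the damage sensor DDB2, differed by -0.28 ± 0.14 (adjusted p = 0.2), whereas a second USP24 probe set differed by -0.97. That second probe set had the higher mean signal, 1555 against 1528, but the lower mean log2 signal. USP7, which stabilises both MDM2 and p53, differed by -0.37 ± 0.14 and USP28, a stabiliser of MYC, by -0.16 ± 0.17 (adjusted p = 0.0956 and 0.561). USP1, which removes ubiquitin from FANCD2 and PCNA, was the second brightest member, at 13112 ± 1676 with taurolidine and 13567 ± 2424 untreated (mean signal ± SD, n = 3), and its difference of -0.043 ± 0.12 did not pass (adjusted p = 0.846). A dimmer USP1 probe set, over the table median on all 12 arrays, differed by -0.56 with taurolidine alone. It differed by -0.88 with taurolidine added to TRAIL, and was lower in 3 of 3 lines each time. USP48 stood at 0.21 ± 0.16 (adjusted p = 0.384).

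**Figure D2:**
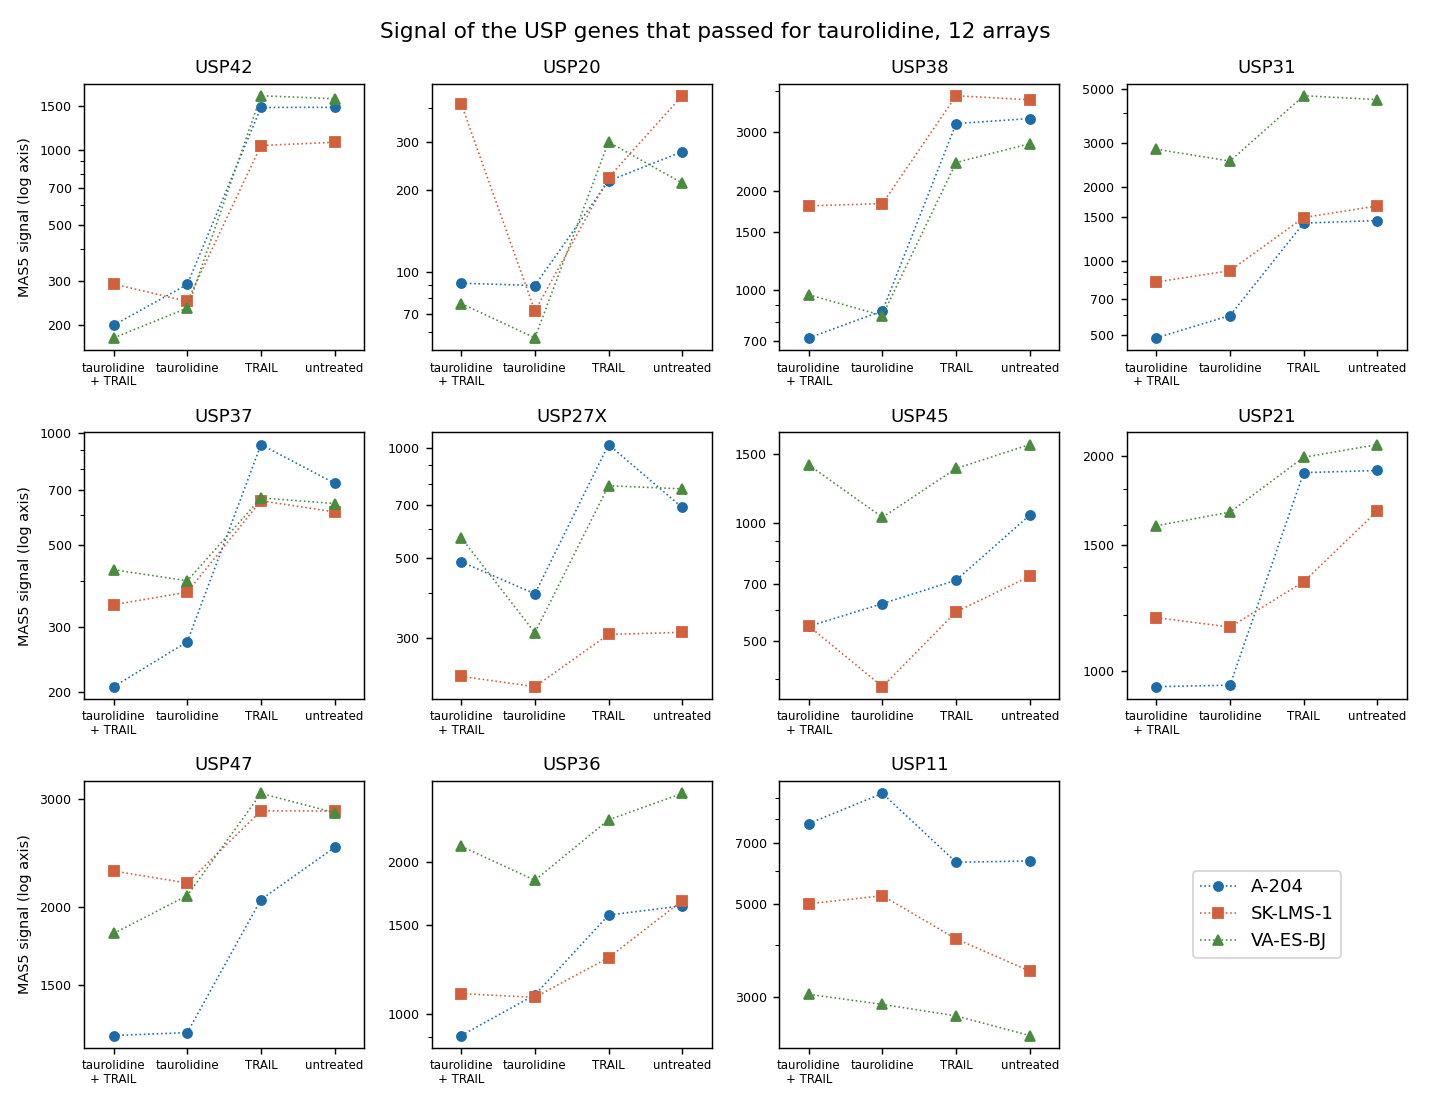
Signal of the 11 USP genes that passed for taurolidine on all 12 arrays, on log axes in the MAS5 unit that differ between panels, with treatments from left to right and 1 coloured line per cell line. USP42 drops on all 6 taurolidine arrays, between 177 and 291, USP20 in SK-LMS-1 is bright again with both agents, at 415, and USP11 runs the opposite way.

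Chromatin was the role of 8 members, of which 3 fell and 0 rose. USP21, a histone H2A deubiquitinase, had signals of 951, 1188 and 1597 with both agents and 956, 1152 and 1669 with taurolidine alone, against 1896, 1334 and 1992 with TRAIL alone and 1909, 1676 and 2075 untreated. Both taurolidine arrays were below both others in each line, and A-204 showed the widest gap. The difference was -0.61 ± 0.18 with an adjusted p of 0.0499, just under the threshold. USP36, a nucleolar enzyme that also stabilises MYC, had signals of 906, 1097 and 2147 with both agents and 1091, 1079 and 1839 with taurolidine alone, against 1569, 1292 and 2421 with TRAIL alone and 1637, 1675 and 2732 untreated. It was lower within every line, by a similar step in each (-0.59 ± 0.13, adjusted p = 0.0203).

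USP22, the catalytic subunit of the SAGA deubiquitinase module, and its relatives USP27X and USP51 share the cofactors ATXN7L3 and ENY2. USP27X had signals of 487, 235 and 567 with both agents and 397, 220.5 and 311 with taurolidine alone, against 1024, 307 and 789 with TRAIL alone and 687, 311 and 773 untreated. It fell by 0.84 on the log2 scale (SE 0.20, adjusted p = 0.0246), and both taurolidine arrays were below both others in each line. USP51, over the table median on 0 of 6 taurolidine arrays and 4 of 6 others, had signals of 71.3, 136 and 30.7 with both agents and 80.2, 28.2 and 22.5 with taurolidine alone, against 654, 112 and 284 with TRAIL alone and 652, 35.9 and 172 untreated. USP51 was high only in A-204 and VA-ES-BJ without taurolidine, was dim in SK-LMS-1 throughout, and its difference of -1.84 ± 0.76 did not pass (adjusted p = 0.126). Without SK-LMS-1, where it was dim, the difference was -2.64 (limma adjusted p = 0.0235). The filter kept USP51 through the group where it was high, so both values are a description and not support for a fall. USP22 itself differed by 0.016 ± 0.13 (adjusted p = 0.947), with mean signals of 11079.9 ± 1991 for taurolidine and 10968 ± 2011 untreated (SD, n = 3). The H2A deubiquitinases USP3 and USP16 and the H2B deubiquitinase USP49 did not pass, at -0.18 ± 0.14, -0.11 ± 0.13 and -0.58 ± 0.20.

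None of the 3 genes of ubiquitin recycling and the proteasome passed. USP14, which sits on the proteasome and trims ubiquitin chains before a substrate is destroyed, was the brightest member, with signals of 16846, 19084 and 12715 with both agents and 15534, 19133 and 13500.3 with taurolidine alone, against 15076, 17686 and 12021 with TRAIL alone and 14124, 17862 and 11651 untreated. Both taurolidine arrays of USP14 were above both others in each line, yet the difference of 0.15 ± 0.085 did not pass (adjusted p = 0.257, 95% interval -0.047 to 0.35). USP5, which takes apart free ubiquitin chains, differed by 0.072 ± 0.16 and its relative USP13 by 0.12 ± 0.13 (adjusted p = 0.798 and 0.578). For USP13, 2 dimmer probe sets gave -0.34 and -0.40, so its probe sets did not share a direction.

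In the group of 6 genes for membrane traffic, mitochondria and autophagy, 1 fell. USP20, which acts on HIF1A and on adrenergic receptors, had signals of 91.1, 415 and 76.6 with both agents and 89.3, 71.9 and 57.3 with taurolidine alone, against 216, 222 and 301 with TRAIL alone and 277, 445 and 212 untreated. The taurolidine signals were all below the table median and below every untreated one, but with both agents the SK-LMS-1 array stood near its untreated value. The difference for taurolidine alone was -1.89 ± 0.47 (adjusted p = 0.0287). USP20 was over the table median on 1 of 6 taurolidine arrays and 6 of 6 others, so it was kept for testing by the group where it was high. The others did not pass and all lay below 0. They were USP8, which works on endosomal receptors such as EGFR, at -0.26 ± 0.091 (adjusted p = 0.0858), USP30 of the mitochondrial outer membrane at -0.27 ± 0.16, USP19 of the endoplasmic reticulum at -0.20 ± 0.28, USP33 at -0.13 ± 0.11 and USP35 at -0.28 ± 0.15.

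Signalling was the role of 9 members, of which 1 fell. USP31, a restraint on NF-kB signalling, had signals of 485, 818 and 2837 with both agents and 598, 910.0 and 2538 with taurolidine alone, against 1420.3, 1496 and 4679.8 with TRAIL alone and 1455, 1668 and 4515 untreated. It was brightest in VA-ES-BJ and lower with taurolidine within every line. The difference was -0.99 ± 0.17, or 1.98-fold (adjusted p = 0.00915).

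USP18, which removes the ubiquitin-like protein ISG15 and dampens interferon receptor signalling, had signals of 1296, 316 and 528 with both agents and 1316, 356 and 623 with taurolidine alone, against 1117, 201 and 268 with TRAIL alone and 1319, 197 and 385 untreated. It was higher with taurolidine in SK-LMS-1 and VA-ES-BJ and nearly level in A-204, and the difference of 0.50 ± 0.19 did not pass (adjusted p = 0.111). Its probe set may also read the near-identical gene USP41. USP9X, a stabiliser of MCL1, averaged 5908 ± 1642 with taurolidine and 5849 ± 1838 untreated (SD, n = 3), a difference of 0.028 ± 0.12 with a 95% interval of -0.24 to 0.30 (adjusted p = 0.895). USP2, which acts on cyclin D1 and MDM2, was the dimmest member and differed by -0.21 ± 0.30 (adjusted p = 0.673). USP12 and USP46, the enzymes activated by WDR48 and WDR20, stood at -0.48 ± 0.19 and -0.35 ± 0.18 (adjusted p = 0.112 and 0.215). USP4, which acts on the TGF-beta type I receptor, USP25, which acts on TRAF3, and USP34, which acts on axin, differed by 0.073 ± 0.14, -0.15 ± 0.17 and -0.23 ± 0.097 and did not pass.

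The spliceosome protein USP39, which lacks protease activity, and USP53 and USP54 did not pass for taurolidine alone, at 0.21 ± 0.13, -0.52 ± 0.22 and -0.30 ± 0.11. Among the remaining 4 members 2 fell. USP38, which has been placed in interferon signalling through TBK1, had signals of 717, 1799 and 968 with both agents and 865, 1827 and 837 with taurolidine alone, against 3191, 3874 and 2433 with TRAIL alone and 3304, 3765 and 2774 untreated. The 6 taurolidine arrays were below all 6 others, with the highest of them, in SK-LMS-1, still under the lowest of the others. Its difference was -1.56 ± 0.22, or 2.94-fold (adjusted p = 0.00475), and USP38 passed in 12 of 15 alternative analyses. USP37, which acts on cyclin A, had signals of 207, 344 and 428 with both agents and 274, 373 and 399.7 with taurolidine alone, against 929.7, 656 and 668 with TRAIL alone and 732, 612 and 645 untreated. Here too the 6 taurolidine arrays lay below the 6 others, with the lowest in A-204 (-0.92 ± 0.27, adjusted p = 0.0471). USP40 and USP43 stood at 0.045 ± 0.11 and 0.064 ± 0.25 and did not pass.

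Arrays were also compared without a model. The 6 arrays with taurolidine all lay below the 6 without for 3 members, USP42, USP38 and USP37, and all above for 0 members. Over all genes 4.84% were below without overlap and 1.66% above. Within each of the 3 lines both taurolidine arrays were below both others for 10 members, USP12, USP21, USP27X, USP30, USP31, USP36, USP37, USP38, USP42 and USP47, and above for 2, USP11 and USP14. The shares over all genes were 15% below and 14.1% above.

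Other probe sets gave a second reading for part of the family. Of the 11 members that passed with taurolidine, 8 had further tested probe sets, 20 in all, and 18 of these differed in the same direction as the one reported. The 2 opposite ones were the second probe set of USP45 and the dimmest of USP31, which differed by 0.62. For USP42 the other tested probe sets gave -1.38 and -1.66, and for USP38 -1.998 and -0.29. The USP42 probe set at -1.66 was over the table median on 7 arrays, with means of 122 with taurolidine alone and 444 untreated. A dim USP37 probe set was likewise over it on 7 arrays (means of 100 and 193). Both are among the 18. Where arrays without taurolidine kept a probe set in the test, its choice favours a fall, so these values are a description. The 4 further probe sets of USP47 lay between -1.11 and -0.52. Some members that did not pass also had dimmer probe sets lower in 3 of 3 lines. Among these were USP12 at -1.04, USP34 at -1.10, -0.75 and -0.70, USP25 at -0.89 and -0.83, USP16 at -0.63 and USP3 at -0.58. The USP34 probe set at -1.10 was over the table median on 7 arrays (means of 113 with taurolidine alone and 281 untreated), so the same limit applies to it. Others lay above 0, from 0.022 to 0.23 for USP14, USP48, 1 of USP4 and 1 of USP16, and at 1.79 for 1 of USP53. With the probe set of highest linear mean as the gene's value, a choice tried after seeing the data, USP24 passed as well and 11 members were lower.

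With both agents together, 9 USP genes were lower than in untreated cells and 1, USP11, was higher, or 21.4% and 2.38% of the members. Over all genes 11.3% were lower and 7.58% higher (18.8% in all). USP42 fell by 2.58 on the log2 scale (SE 0.25, 5.98-fold, limma adjusted p = 0.00102), USP38 fell by 1.59 (SE 0.22, adjusted p = 0.00425), USP31 fell by 1.08 (SE 0.17, adjusted p = 0.00706) and USP37 fell by 1.05 (SE 0.27, adjusted p = 0.0319). USP36, USP47 and USP21 fell by 0.60, 0.66 and 0.62. This contrast shares its untreated arrays with that of taurolidine alone.

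USP53 and USP24 passed for the combination and not for taurolidine alone, which does not show that the contrasts differ. USP53, a protein of tight junctions, had signals of 88.3, 974 and 320.3 with both agents and 139, 1065 and 315 with taurolidine alone, against 177, 938 and 379.5 with TRAIL alone and 220.4, 1075 and 607 untreated. It was below untreated in 3 of 3 lines with both agents (-0.75 ± 0.22, adjusted p = 0.0484), but a dimmer probe set of the gene differed by 1.79 with taurolidine alone, the opposite way. USP24 had signals of 1235, 1809.9 and 890.1 with both agents and 1602.8, 1727 and 1148 with taurolidine alone, against 1585, 1726 and 1212 with TRAIL alone and 1854, 1922 and 1619 untreated and was lower in 3 of 3 lines (-0.51 ± 0.14, adjusted p = 0.0436). The step was small in SK-LMS-1 for both genes. Of those that passed for taurolidine alone, USP20 stood at -0.98 ± 0.47, USP27X at -0.44 ± 0.20 and USP45 at -0.50 ± 0.16 with both agents (adjusted p = 0.183, 0.164 and 0.0576). The count of lower members was 3 without SK-LMS-1, 0 without A-204 and 1 without VA-ES-BJ, and 27 (64.3%) with values scaled to the spikes, where 34.5% of all genes were lower. With a line left out, 3.21%, 1.48% and 2.27% of all genes were lower, in the same order of lines.

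Taurolidine added to TRAIL could be read on arrays that took no part in the contrast of taurolidine alone, though from the same 3 lines. Both contrasts came from 1 model of all 12 arrays and shared its estimate of the spread, with the same SE for each gene. Passing in both is therefore not the outcome of independent tests. There 5 members were lower and 0 higher, or 11.9% and 0% of the family, where over all genes 9.63% were lower and 6.53% higher (16.2% in all). The 5 were USP42 at -2.58 ± 0.25 (adjusted p = 0.00114), USP38 at -1.52 ± 0.22 (adjusted p = 0.00567), USP31 at -1.04 ± 0.17 (adjusted p = 0.00894), USP37 at -1.21 ± 0.27 (adjusted p = 0.0233) and USP47 at -0.60 ± 0.15 (adjusted p = 0.0319). All 5 had also fallen with taurolidine alone, where their differences were -2.36, -1.56, -0.99, -0.92 and -0.61 in the same order. The median over the 42 members was -0.20, against 0.061 for all genes, and 12 members (28.6%) had an unadjusted p under 0.05, as had 33.8% of all genes.

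The other 6 members that had passed with taurolidine alone did not pass in the presence of TRAIL, although each lay on the same side of 0. USP27X stood at -0.63 ± 0.20 (adjusted p = 0.0686), USP36 at -0.40 ± 0.13 (adjusted p = 0.0784), USP21 at -0.49 ± 0.18 (adjusted p = 0.101) and USP11 at 0.25 ± 0.11 (adjusted p = 0.154). USP20 and USP45 were nearer 0 than with taurolidine alone, at -0.70 ± 0.47 and -0.16 ± 0.16. USP18 was above 0 in 3 of 3 lines, against 2 of 3 with taurolidine alone, and did not pass (0.59 ± 0.19, adjusted p = 0.0739). The number of lower members in this contrast was 3 without SK-LMS-1, 0 without A-204 and 1 without VA-ES-BJ, and 32 (76.2%) with values scaled to the spikes, where 44.2% of all genes were lower. With a line left out, 2.87%, 1.55% and 1.88% of all genes were lower, in the same order of lines.

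**Figure D3:**
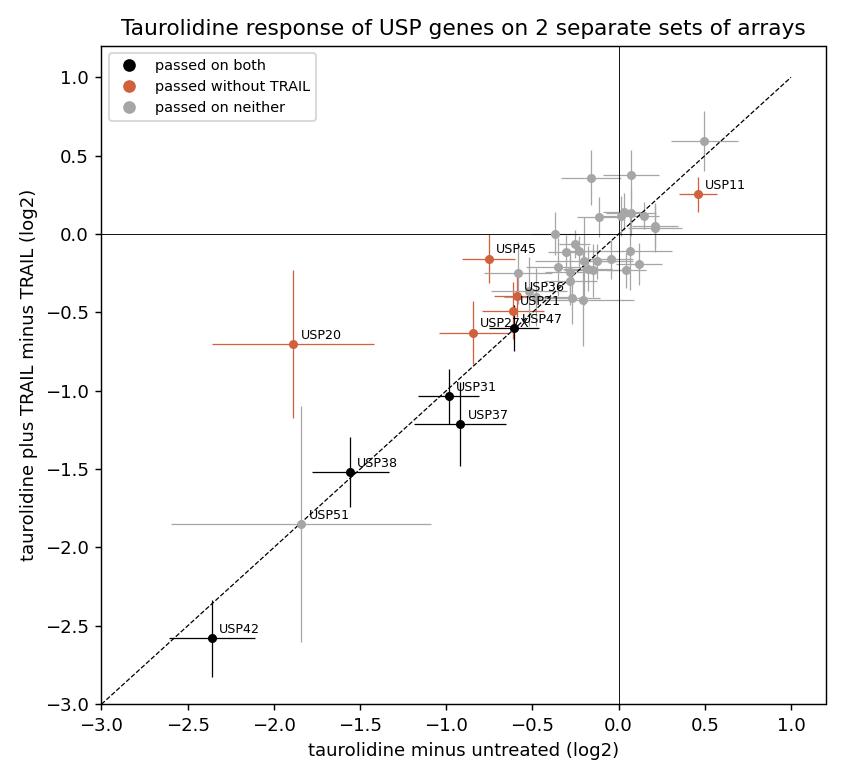
Taurolidine difference of each of the 42 USP genes on both separate sets of arrays, taurolidine minus untreated on the horizontal axis and taurolidine plus TRAIL minus TRAIL on the vertical axis, both in log2 units with bars of ± SE and a dashed line of equality. USP42, USP38, USP31, USP37 and USP47 passed on both axes, and USP20 lies farthest above the dashed line.

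No USP gene passed for TRAIL alone. By limma 0 of 42 members and 0% of all genes passed, and at an unadjusted p under 0.05 stood 1 member and 566 of the 14221 genes. That member was USP13, with signals of 4196, 6333 and 4716 with TRAIL, against 4147, 3967 and 3767 untreated (0.34 ± 0.13, adjusted p = 0.9995). Its TRAIL array in SK-LMS-1 was the highest, and in A-204 both arrays were nearly level. The members' differences ran between -0.38 for USP53 and 0.69 for USP51, and the 95% interval lay within 1 log2 unit of 0 for 39 of 42 members.

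TRAIL added to taurolidine also gave 0 members and 0% of all genes, with 0 members and 376 genes at an unadjusted p under 0.05. The smallest p among members was that of USP54, at 0.25 ± 0.11 (adjusted p = 0.9998), and the highest difference that of USP20, at 0.91 ± 0.47, which rested on SK-LMS-1 with its signal of 415. The interval lay within 1 log2 unit for 40 of 42 members. The title of the study asks about synergy, and the departure of the combination from the sum of both single effects was tested on the log2 scale. No member passed, and neither did any other gene (0%), with 1 member and 540 genes at an unadjusted p under 0.05. USP45 came closest, at 0.60 ± 0.22 with an adjusted p of 0.998, followed by USP28 at 0.52 ± 0.24. For 35 of 42 members the interval of this departure lay within 1 log2 unit of 0. On simulated data of this design a departure of 1 log2 unit was found in 27.5% of changed genes and of 2 in 68%.

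The 3 lines differed in the level of most USP genes. By an F test over the 4 arrays of each line, 31 of 42 members differed (73.8%), while over all genes 73.7% did, so the family stood at the background of these lines. Of the 31, 13 were brightest in SK-LMS-1, 13 in VA-ES-BJ and 5 in A-204. For 12 of them the brightest line was at least 2-fold over the dimmest. The count of members that differed was 18 without VA-ES-BJ and 20 without SK-LMS-1. The share of all genes was not counted for the 2-fold range or with a line left out, so these counts describe the members only.

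USP53 had the widest range, at 1013 ± 67.3 in SK-LMS-1, 405 ± 137 in VA-ES-BJ and 156 ± 56.2 in A-204 (mean signal ± SD over 4 arrays of a line, all treatments). That is 6.38-fold between SK-LMS-1 and A-204 (F test, limma adjusted p = 1.52e-05), and the arrays of these lines did not overlap. USP18 was brightest in A-204, at 1262 ± 97.3, with 451 ± 156 in VA-ES-BJ and 267 ± 80.7 in SK-LMS-1, a 4.70-fold range (adjusted p = 1.9e-05). USP31 and USP40 were brightest in VA-ES-BJ, by 3.95-fold and 3.39-fold over A-204 (adjusted p = 1.68e-05 and 2e-06). For USP40 the other 2 lines stood close together, at 1494 ± 189 in SK-LMS-1 and 1346 ± 109 in A-204, against 4587 ± 311 in VA-ES-BJ. USP11, the member that rose with taurolidine, was 2.66-fold brighter in A-204 than in VA-ES-BJ (adjusted p = 1.25e-05).

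USP42 and USP37, which fell with taurolidine, did not pass the test of level between lines (adjusted p = 0.763 and 0.673), and neither did USP7 and USP48. Over treated and untreated arrays the mean signal of USP42 was 859.6 for A-204, 662 for SK-LMS-1 and 912 for VA-ES-BJ.

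**Figure D4:**
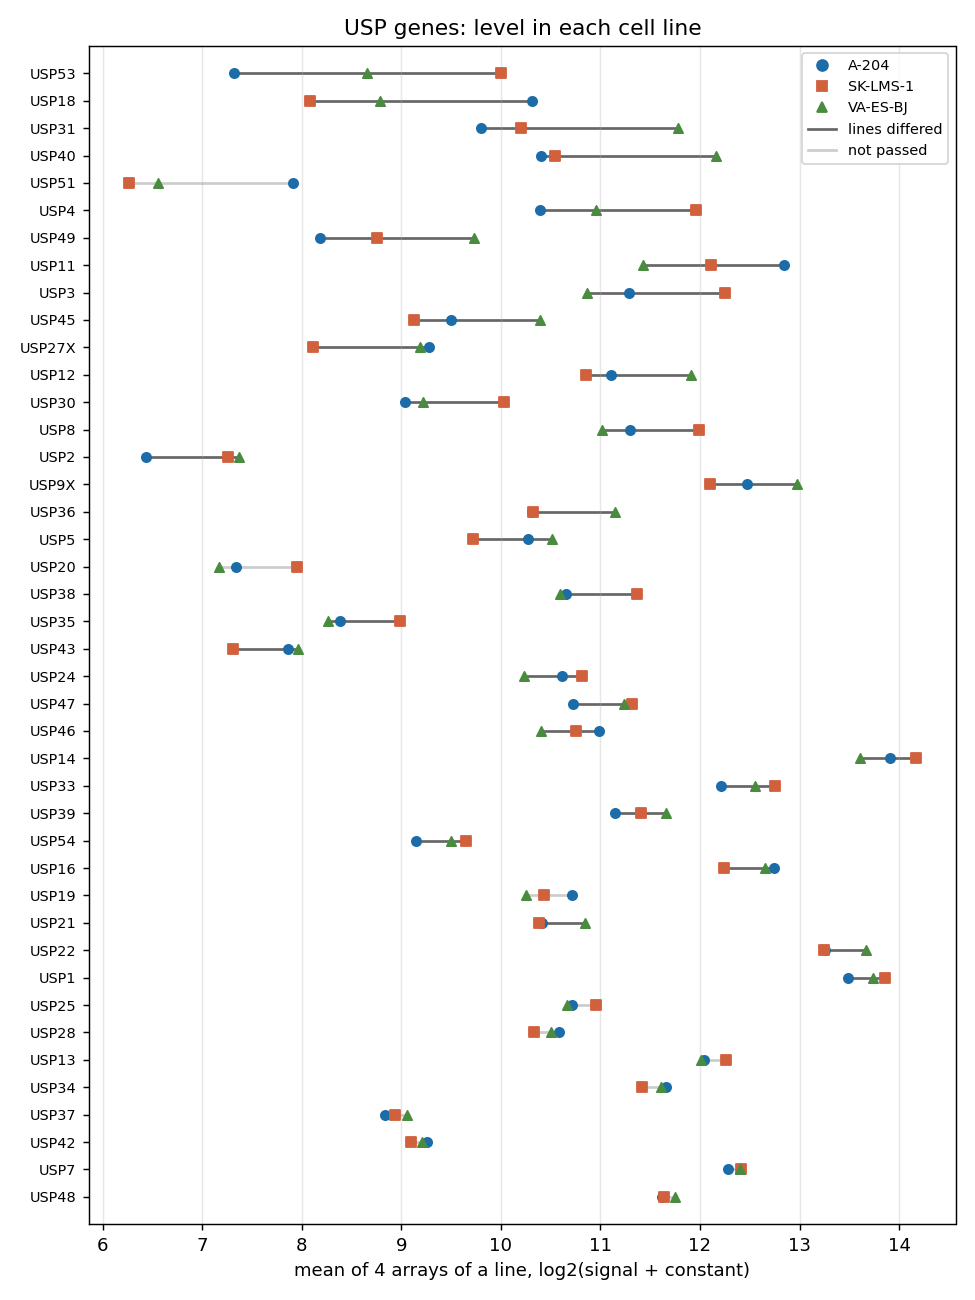
Level of the 42 USP genes in each cell line, as the mean of the 4 arrays of a line on the log2(signal + constant) scale, ordered by the range between lines, with a dark bar where the F test passed. USP53 and USP18 have the widest bars at the top, USP14 lies farthest right, and USP7 and USP48 at the bottom have the lines nearly on top of each other.

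A test of whether the taurolidine response itself differed between lines, with both pairs of arrays per line pooled over TRAIL, called 0 of 42 members, where 1.36% of all genes passed. At an unadjusted p under 0.05 stood 16 members and 2744 genes. USP38 came closest, with responses of -2.03 for A-204, -1.07 for SK-LMS-1 and -1.52 for VA-ES-BJ (SE 0.13 each, adjusted p = 0.0936). USP51 responded by -2.93, 0.0021 and -2.61 in the same order (SE 0.49, adjusted p = 0.121), USP21 by -0.99, -0.35 and -0.31 (SE 0.11, adjusted p = 0.113) and USP42 by -2.56, -1.93 and -2.92 (SE 0.19, adjusted p = 0.175). With an intensity trend in the prior variance 3 members passed, USP38, USP3 and USP21, and the share of all genes in that fit was not counted. On simulated data with the difference placed in 1 line, this test found 2.44% of differences of 1 log2 unit and 40.1% of 2. Most differences of this size and kind were thus missed on the simulated data. Whether these rates hold for the real arrays was not tested. The lack of called members therefore does not show that the lines responded alike.

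Relatives and partners of the family were measured beside it. USPL1, which has the USP fold but cleaves the tag SUMO, had signals of 459, 307 and 728 with both agents and 312, 219 and 693 with taurolidine, against 1263, 808 and 2955 with TRAIL and 917, 846 and 2399.8 untreated. Each taurolidine array was below each other array of its line, and the difference was -1.73 ± 0.16 (limma adjusted p = 0.000818). USPL1 was the only 1 of 3 tested genes with this fold under another symbol to pass. CYLD and PAN2 did not pass, at -0.44 ± 0.19 and -0.36 ± 0.19 (limma adjusted p = 0.134 and 0.213). Of 8 partner genes of USP enzymes 2 fell and 1 rose, where over all genes 11.5% were lower and 7.73% higher. WDR20, the activator of USP12 and USP46, had signals of 507, 517 and 346 with both agents and 552, 503 and 396 with taurolidine, against 1538, 1725 and 1605 with TRAIL and 1491, 1619.6 and 1664 untreated, a 3.26-fold fall for taurolidine alone (-1.71 ± 0.15, adjusted p = 0.000818). WDR48, which activates USP1, USP12 and USP46, differed by -0.35 ± 0.10 (adjusted p = 0.0471). GMPS, the nucleotide enzyme that binds USP7, rose by 0.64 ± 0.10 (adjusted p = 0.00578). The enzymes these proteins bind, USP1, USP7, USP12 and USP46, did not pass themselves with the probe sets reported. A dimmer probe set of each was lower in 3 of 3 lines, at -0.56, -0.51, -1.04 and -0.50 in that order.

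Of the 34 tested genes listed under 5 other deubiquitinase families, of 39 listed, 11 fell and 6 rose with taurolidine. They are called deubiquitinases by list heading only, and enzyme activity was not measured. Over all genes 11.5% were lower and 7.73% higher, which is the background for each list count here. In the OTU family 9 of 13 fell and 1 rose, with a median of -0.71. TNFAIP3, which edits ubiquitin chains in NF-kB signalling, fell by 1.05 on the log2 scale (SE 0.19, adjusted p = 0.011), VCPIP1 by 1.04 (SE 0.27, adjusted p = 0.033), YOD1 by 0.90 (SE 0.14, adjusted p = 0.0064) and OTULIN, which cuts linear chains, by 0.84 (SE 0.11, adjusted p = 0.0032). OTUB1 was the one that rose, by 0.41. Under the JAMM heading 4 of 11 genes rose, MPND, COPS6, EIF3H and EIF3F. The histone H2A deubiquitinase MYSM1 was the 1 that fell, by 0.45, and the median of the list was 0.26. UCHL1 rose by 0.50 and was the only one of 3 UCH genes to pass, while 0 of 3 Josephin genes passed. ZUP1, at -1.01, was the only one of 4 genes of the MINDY and ZUFSP families to pass. Of 30 proteasome subunits 6 rose and 0 fell, with a median of 0.30 and PSMB3 highest at 0.56. Of 26 ubiquitin-conjugating E2 enzymes 2 rose and 2 fell, with a median of 0.017. In the ISG15 system, on which USP18 acts, ISG15 and HERC6 rose by 0.34 and 0.49 among 4 tested genes. The 3 tested genes for ubiquitin and its E1 enzymes did not pass. With values scaled to the spikes the medians above 0 turned to -0.34 for proteasome subunits, -0.38 for JAMM genes and -0.62 for E2 enzymes, which also turned with quantile normalisation (-0.040), and no gene of these 3 lists was then higher. The medians of the smaller lists turned too, to -0.21 for the ISG15 system, -0.35 for UCH genes and -0.43 for ubiquitin and its E1 enzymes. In that scaling 24 of the 34 other deubiquitinases were lower and 0 higher, where 56.4% of all genes were lower and 0.267% higher.

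**Figure D5:**
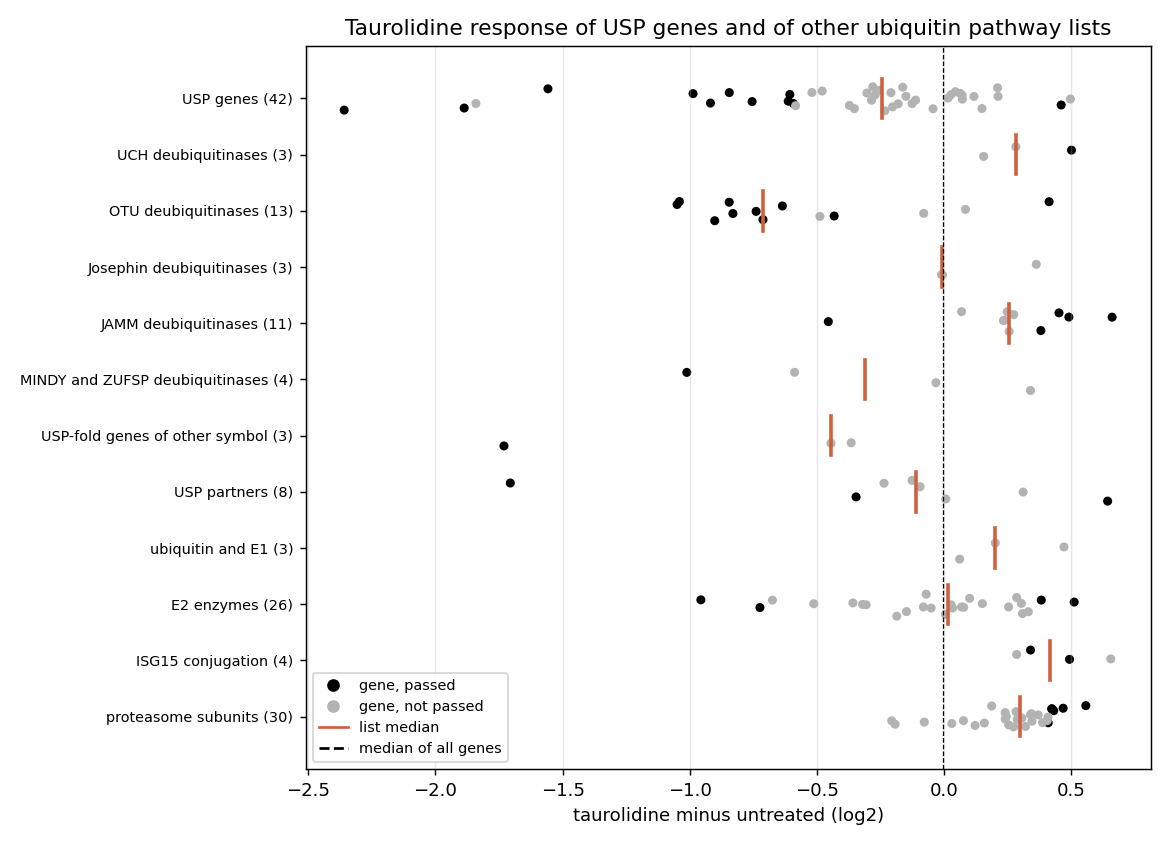
Taurolidine minus untreated on the log2 scale for the 42 USP genes and 11 other lists of the ubiquitin system, 1 point per tested gene (black where the adjusted p was under 0.05), with the list median in orange, the median of all genes as a dashed line and the number of tested genes in brackets. The medians are -0.24 for USP genes, -0.71 for OTU deubiquitinases and 0.30 for proteasome subunits.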

How the data were processed

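The 12 arrays are Affymetrix 3' expression arrays, 1 for each of 3 lines and 4 treatments. The deposited values are intensity on a linear scale made with MAS5, per the submitters' processing notes, without a stated version or scaling target. Arrays share a common mean, so a change in total messenger RNA per cell is not visible. Of 54675 probe sets, 41097 had 1 gene symbol, 1801 several and 11777 none. Those over 136.5, the table median, on at least 3 arrays were tested (32421), and the one with the highest mean log2 value stood for each gene (14221 genes). Values entered as log2(value + 11.8), the constant being the 10th percentile of the table, so changes of dim genes are understated.

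Treatment and cell line were the terms of a linear model (limma 3.58.1, R 4.3.3), with 6 residual and 1.99 prior degrees of freedom, and p-values were adjusted over all genes by the Benjamini-Hochberg method at 0.05. A second model with taurolidine within each line gave the test of the difference between lines. The cell line pairs the arrays: deviations from treatment means had correlations of 0.852 to 0.904 for arrays of 1 line and of -0.481 to -0.386 for arrays of different lines. The labels do not say whether arrays came from separate cultures, so the p-values rest only on the spread among these arrays, which may be technical, and precision is limited by how many there are. The members, the roles, the gene lists and the tests were chosen with earlier results of these data known. Genes were named by rule (largest falls and rises, passing only with both agents, smallest p where none passed, widest ranges between lines, brightest, dimmest, and a set of well studied members), and the other members' values were added.

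The procedure was tested on simulated data with 14221 genes and 200 changed, over 10 runs. For taurolidine against untreated it found 13.1% of changes of 0.5 log2 units, 53.8% of changes of 1 and 81.7% of changes of 2. The real contrast called 2729 genes, many more than the 200 changed here. Adjusted p-values depend on that share, so these rates do not give the detection in the real contrast. Alternatives covered the constant, the filter, the scaling between arrays, the choice of probe set, the prior variance, the line term, the arrays fitted and each line left out. Probe sets of related genes, such as USP22 and USP27X or USP12 and USP46, may read each other.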

Additional observations from a re-analysis of the deposited data

How the results depend on the processing

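For taurolidine alone (10 lower and 1 higher of 42 members) no filter gave 6 lower and 0 higher, equal array medians 6 lower, quantile normalisation 2 higher, scaling to the poly-A spikes 36 lower and 0 higher, no replicate block (no line term) 1 lower and 0 higher, and only the arrays compared 0 lower and 0 higher. Leaving out a line in turn gave 1 to 3 lower and 0 higher. Over all genes the shares lower were 5.77% with no filter, 7.88% with equal medians, 56.4% with the spikes and 0.963% with no replicate block. For both agents (9 lower and 1 higher) the counts lower were 5 with no filter, 5 with quantile normalisation, 5 with equal medians, 27 with the spikes, 1 with no replicate block, 0 with only the arrays compared and 0 to 3 without 1 line. The count higher for both agents was 0 under no filter, equal medians, the spikes, the mean of probe sets, no replicate block, only the arrays compared and each line left out. Shares of all genes lower for both agents were 5.49% with no filter, 8.86% with quantile normalisation, 8.52% with equal medians and 34.5% with the spikes. For taurolidine added to TRAIL (5 lower, 0 higher) the member counts were 32 lower with the spikes, 11 with the mean of all probe sets, 1 with no replicate block, 0 with only the arrays compared and 0 to 3 without 1 line, and 1 higher with quantile normalisation. Over all genes 44.2% were then lower with the spikes and 9.87% with the mean of all probe sets. The intensity trend called 3 members for a difference between lines in the response, against 0, and for the level 18 were called without VA-ES-BJ and 20 without SK-LMS-1, against 31. Shares of all genes were not counted in those fits, so a change of the family cannot be told from one of all genes. Of the other 34 deubiquitinases, 10 were higher with equal medians (12.9% of all genes), and 24 were lower and 0 higher with the spikes (56.4% and 0.267% of all genes). The cause was not tested.

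Of all calls for taurolidine, 40.3% were higher as reported, 52.0% with quantile normalisation, 62.0% with equal medians and 0.471% with the spikes; the median of all genes was -0.0035, 0.062, 0.11 and -0.62 in that order. The number of genes called was 2729 as reported, 1650.0 with no filter, 8061 with the spikes, 143 with no replicate block, 354 to 415 without 1 line and 0 with only the arrays compared, where 3776 had an unadjusted p under 0.05.

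With the spikes, signs turned for USP11 (-0.17, and -0.066 with both agents), USP13 (-0.52), USP18 (-0.12), USP40 (-0.59), USP14 (-0.49), USP9X (-0.61) and USP22 (-0.62). With the mean of probe sets they turned for USP53 (0.29), USP13 (-0.21), USP40 (-0.069), USP9X (-0.31) and USP22 (-0.17), with quantile normalisation for USP28 (0.024), USP14 (-0.046), USP9X (-0.033) and USP22 (-0.14), and with equal medians for USP1 (0.077). Without A-204 they turned for USP40 (-0.049), USP1 (0.011), USP2 (0.23) and USP22 (-0.070), and without SK-LMS-1 for USP1 (0.054) and USP9X (-0.029). Apart from USP11 none of these had passed for taurolidine alone. Over the 15 alternatives USP42 lay between -2.97 and -1.80 and passed in 14, USP38 between -2.19 and -1.28 and passed in 12, USP31 between -1.62 and -0.52 and passed in 10, and USP37 between -1.54 and -0.69 and passed in 5.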
